A study of Sus scrofa with 6 samples.

Results

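Group 3-like innate lymphoid cells (ILC) of the neonatal pig ileum were taken as the barcodes that held at least 1000 UMIs (unique molecular identifiers, each counting 1 captured RNA molecule) and at least 500 genes, and that passed a gate on 11 genes. The gate asked for at least 5 UMIs of TAC3, NCR2, IL23R and KLRB1 together, at most 1 UMI of the T cell receptor chains CD3E and CD3G, 0 UMIs of the B cell genes MS4A1 and PAX5, and fewer than 5 UMIs of the epithelial genes EPCAM, KRT8 and VIL1. It was met by 1533 of 76099 cells (2.01%). Because the gate reads measured values, the levels of those 11 genes are given below as a description, with no test.

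Innate lymphoid cells are lymphocytes without a rearranged antigen receptor. The third group of them carries the interleukin 7 receptor, is activated by interleukin 23 and interleukin 1 and releases interleukin 22 and interleukin 17 at mucosal surfaces, where interleukin 22 acts on the epithelium. Lymphoid tissue inducer cells belong to the same group, express lymphotoxin and are known for starting Peyer's patches before birth. Of the gate's genes, NCR2 encodes the activating receptor NKp44, IL23R a chain of the interleukin 23 receptor, KLRB1 the lectin receptor CD161 and TAC3 the precursor of the neuropeptide neurokinin B.

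The libraries came from the ileum of male pigs aged 0, 1, 3, 7, 14 and 21 days, with 1 library per age, made by a droplet method that reads the 3' end of transcripts. The study's methods describe piglets of pure-line large white sows kept on maternal milk, 5 at each age, with mucosa scraped and cells released by EDTA and a short enzyme digestion; no animal can be told from another within a library, and the series' design text names the cecum where the sample labels name the ileum. All 6 groups differ in age alone as labelled, so age and library cannot be told apart, and no difference between ages was tested. Each library held between 77391932 and 100348769 UMIs over 20648 genes, and cells had a median of 3693 to 4560 UMIs. Barcode sequences shared by 2 libraries numbered 31 to 68 in each of the 15 pairs, and 0 of them were ILC in both.

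ILC were 3.54% of cells at birth and 5.39% on day 3, and only 2 were left in the day 21 library. The members numbered 384, 399, 612, 68, 68 and 2 on days 0, 1, 3, 7, 14 and 21. As shares of all cells these were 3.54% (95% interval 3.20 to 3.91), 3.47% (3.14 to 3.82), 5.39% (4.98 to 5.82), 0.538% (0.418 to 0.682), 0.426% (0.331 to 0.540) and 0.0145% (0.00175 to 0.0523). Days 0 and 1 overlapped in their intervals, as did days 7 and 14, while day 3 lay above and day 21 below all the others. All intervals in this text are exact (Clopper-Pearson for shares, Poisson for levels) and cover counting error only.

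The other lymphocytes of the same libraries moved over the same ages. T cells, defined by at least 2 UMIs of CD3E and CD3G under the same depth, B cell and epithelial limits, were 16.2%, 14.1%, 3.06%, 3.4%, 2.24% and 1.29% of cells in order of age. Cells with at least 2 UMIs of MS4A1 and PAX5 went from 12.7% at birth to 21.1%, 59.1%, 73.2%, 86.2% and 87.8%, and cells past the epithelial limit from 24.0% to 0.00724%. Against T cells alone the day 3 library stood out: ILC were 18.0%, 19.8%, 63.7%, 13.7%, 16.0% and 1.11% of ILC plus T cells, or 176 ILC per 100 T cells on day 3 and 15.8 to 24.6 on days 0, 1, 7 and 14. The part of the larger B cell share in the lower ILC share of all cells was not tested.

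**Figure D1:**
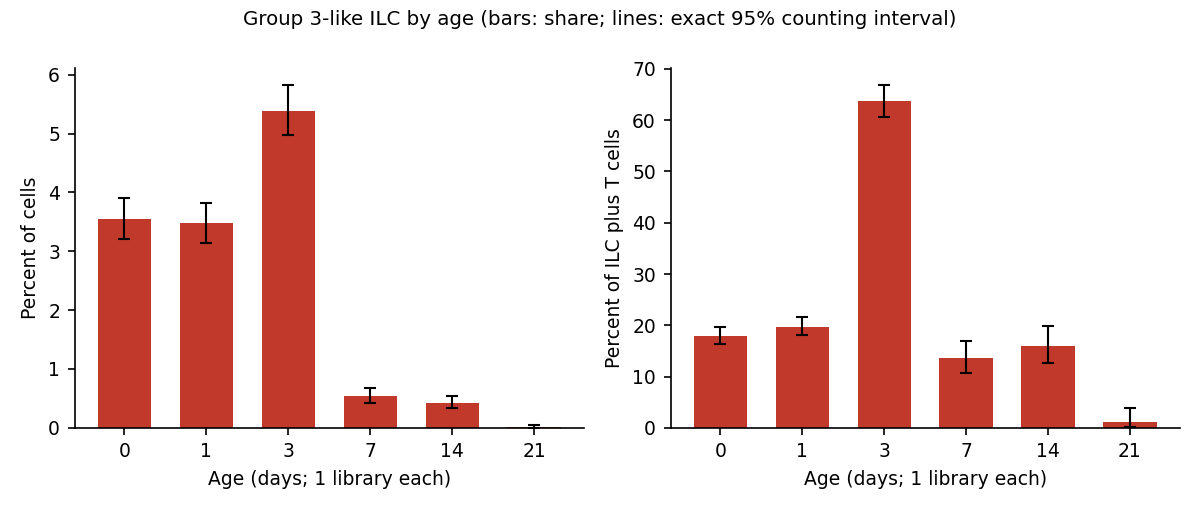
Group 3-like ILC by age in days (1 library each) as a percent of all cells (left) and of ILC plus T cells (right); bars are shares and lines exact 95% counting intervals. The day 3 bar is the highest in both panels, at 5.39% and 63.7%, and the day 21 bar the lowest.

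TAC3 carried most of the gate. At least 1 TAC3 UMI was found in 95.5% of the members, with a median of 21 UMIs and a maximum of 98, and TAC3 supplied 74.2% of all UMIs of the 4 markers. KLRB1 was detected in 77.2%, NCR2 in 55.8% and IL23R in 50%. All 4 markers were detected in 351 members, 3 in 632, 2 in 419 and 1 in 131, of which 100 had TAC3 alone and 30 KLRB1 alone. TAC3 lies on chromosome 5 from 22324927 to 22336464 and NCR2 on chromosome 7 from 36545752 to 36553129 in the Sscrofa11.1 assembly (RefSeq annotation).

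The TAC3 level was lower in older libraries. It stood at 43.3, 35.5, 33.8, 33.6 and 14.7 UMIs per 10000 in ILC on days 0, 1, 3, 7 and 14, at 1.08, 0.527, 0.710, 0 and 0.225 in T cells, and at 1.22, 0.923, 2.13, 0.24 and 0.0974 in barcodes of at most 100 UMIs, which stand for free RNA. Members with TAC3 were 96.1%, 98.2%, 97.4%, 91.2% and 64.7% (52.2 to 75.9), while KLRB1 was detected in 78.9%, 76.7%, 73.9%, 80.9% and 97.1%. The members of day 14 thus passed the gate more through KLRB1 than those of the younger libraries did. NCR2 was detected in 53.1%, 52.1%, 61.6%, 64.7% and 32.4%, and IL23R in 36.5%, 49.6%, 60.8%, 47.1% and 35.3%.

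**Figure D2:**
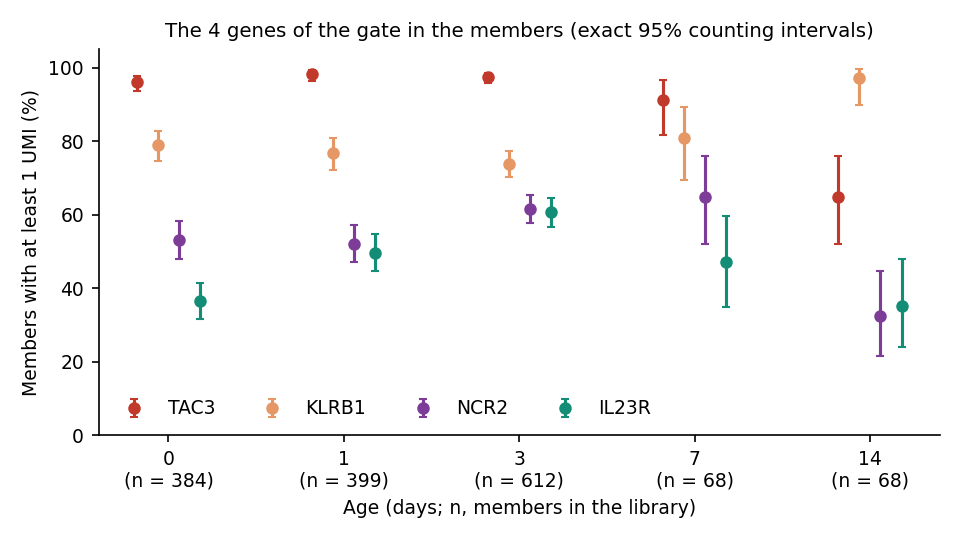
Percent of ILC with at least 1 UMI of TAC3, KLRB1, NCR2 and IL23R by age in days, with exact 95% counting intervals and the number of members under each age; day 21 (2 members) is not drawn. TAC3 is the highest on days 0 to 7 and KLRB1 on day 14 (97.1% against 64.7%).

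The gate's limits removed some barcodes with marker UMIs. Of 1931 barcodes with at least 5 marker UMIs, 105 were over the CD3 limit, 277 over the B cell limit and 30 over the epithelial limit; some were over more than 1. The B cell limit took out 30 of 470, 22 of 451, 148 of 775, 29 of 106 and 45 of 122 such barcodes on days 0, 1, 3, 7 and 14. On day 21 it took out 3 of 7. The part taken out was thus larger on days 7, 14 and 21 than on the younger days. Barcodes that missed only by 1 UMI of the B cell genes numbered 106, of which 63 were of day 3 and 14 of day 14, and those that missed only by a CD3 sum of 2 numbered 19. Of the members, 40 held 1 CD3 UMI and 153 an epithelial UMI. The median marker sum of the members was 29 and the maximum 118; 37 members held exactly 5 marker UMIs, and 44 barcodes just outside held 4. Members with exactly 5 had IL7R in 67.6% at a median of 2149 UMIs, and barcodes with 4 had IL7R in 70.5% at a median of 2306.5. Members above 5 had IL7R in 92.6% at a median of 6235 UMIs, and barcodes with 0 UMIs of the markers and of CD3 had IL7R in 3.48%.

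The label was checked on lineage genes that the gate did not use. IL7R, a chain of the interleukin 7 receptor, was detected in 93.8%, 88.7%, 94.6%, 91.2% and 77.9% of ILC on days 0, 1, 3, 7 and 14, against 9.55% to 66.0% of T cells and 1.04% to 2.89% of B cells over the 6 libraries and 0.602% to 1.62% of epithelial cells on days 0 to 7. With each cell thinned to 1000 UMIs, which left out no cell, the IL7R shares in ILC were 65.1%, 50%, 62.5%, 63.6% and 43.5%, and those in T cells 4.41% to 35.3%. Over all members the inhibitor of DNA binding ID2 was detected in 95.8%, the stem cell factor receptor KIT in 67.5%, the interleukin 1 receptor IL1R1 in 36.3% and the aryl hydrocarbon receptor AHR in 33.6%. Both members of day 21 held IL7R and IL22.

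Some defining genes of other lineages were low or at 0, and others were not. EOMES, which defines NK cells, was in at most 1.47% of members on any of days 0 to 14, as were KLRD1 and GNLY, and NCR1 was in at most 2.94%. PRF1, another NK cell gene, did not pass in the test against T cells described below. Its log2 fold change lay between -0.77 and -0.09 under 22 alternative settings, with 0 calls. NKG7, also an NK cell gene, was in 35.2% to 68.2% of the members with TAC3 on days 0 to 14. The adaptor FCER1G was in 83.7% to 93.5% of them. The T cell gene CD2 was in 32.5% of all members. CD3D was found in 1 member and CD79A in 1 member. CD79B was in 2.86%, 4.76%, 14.1%, 26.5% and 13.2% of members and in 3.36%, 3.89%, 10.9%, 21.2% and 13.5% of T cells. Both classes were highest on day 7, and the part of B cell RNA in these values was not tested. The summed level of 10 epithelial markers ranged from 0.110 to 1.67 UMIs per 10000 in ILC, and that of 10 myeloid markers from 0 to 4.38. Of the markers of other cell types tested against T cells as described below, BANK1 was higher and POU2AF1 lower among 4 B and plasma cell genes, COL1A2 and DCN higher among 5 stromal genes, FABP2 lower among 4 epithelial genes, and the myeloid AIF1, the mast cell FCER1A and the tuft cell AVIL did not pass. Over all 9086 genes tested, 13.1% were higher in ILC and 11.6% lower. AIF1, FCER1A and AVIL were the only genes tested on their lists of 10, 6 and 6 markers. The tuft cell marker DCLK1, which was not tested, was found in some members and is described at the end of this text. No doublet caller was run, and the gate's upper limits are the only guard; 6 members had over 20000 UMIs.

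Members were deeper than T cells. Median UMIs were 5984.5, 7050, 6033.5, 5598.5 and 3801 in ILC and 3422, 4159, 4462, 4273.5 and 2958 in T cells on days 0, 1, 3, 7 and 14. B cells had medians between 3552 and 4797 UMIs and epithelial cells between 4338 and 16106.5. Mitochondrial transcripts took a median of 4.95%, 3.87%, 6%, 4.12% and 3.65% of the members' UMIs. Below, levels are UMIs per 10000 UMIs summed over the cells of a class in a library, and 5 values in a row are days 0, 1, 3, 7 and 14.

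To ask what sets ILC apart from T cells of the same intestine, UMIs were summed per library and class and compared with edgeR's quasi-likelihood test, with the library as a block and Benjamini-Hochberg adjustment over all genes tested. The libraries served as the replicates (n = 5; day 21, with 2 ILC, was left out). Of 9086 genes, 1193 were higher in ILC (13.1%) and 1053 lower (11.6%), and 988 and 931 of them kept that direction in all 5 libraries. Genes that go with CD3 or with the 4 markers in these cells are not independent of the gate. The median log2 fold change over all genes tested was -0.04.

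Transcription factors of the lineage were more often higher than lower. ID2, which holds back the B and T cell programs, stood at 23.1, 26.1, 20.4, 14.6 and 33.8 in ILC and 8.98, 4.74, 3.13, 4.05 and 7.83 in T cells, with no overlap between the classes. The log2 fold change was 2.11 (n = 5; edgeR adjusted p = 4.5e-06). Of the 17 listed factors tested, 7 were higher and 2 lower, against 13.1% and 11.6% of all genes, with a list median of 0.58. The same background shares apply to every other list count.

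Several other factors were higher too. RORA was 1.58 higher on the log2 scale, AHR 1.35, NFIL3 1.17, RUNX3 1.07 and GATA3 0.58; NFIL3 was higher in 4 of 5 libraries, and the calls of NFIL3 and GATA3 were lost under 7 and 4 of the alternative settings. The lower factors were IKZF3, at 0.263, 0.306, 0.510, 0.353 and 0.442 against 1.19, 0.861, 2.20, 3.58 and 3.54, and BATF, with log2 fold changes of -2.26 and -1.33. TOX, ZBTB16, TCF7, MAF, IKZF2, PRDM1, STAT3 and ETS1 did not pass the test.

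Effector cytokines were on the ILC side: 11 of 14 listed cytokines tested were higher in ILC, 0 were lower, against 13.1% and 11.6% of all genes, and the list median was 2.68. IL22, on chromosome 5 from 32599522 to 32604507, reached 0.790, 11.9, 4.29, 6.23 and 15.4 in ILC and 0.0327, 0.185, 0.189, 0.917 and 2.90 in T cells. In each library ILC lay above T cells, although the day 0 ILC value lay below the T cell values of days 7 and 14. On day 7, 1 of 68 members held 56.7% of the IL22 UMIs, and the level without it was 2.75. The log2 fold change was 3.99 ± 0.45 (SE, n = 5; edgeR adjusted p = 5.7e-05).

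IL17A, the lead interleukin 17 cytokine, was 4.33 ± 0.72 higher on the log2 scale (SE, n = 5; edgeR adjusted p = 0.00088), from 0.514, 2.44, 0.931, 0.378 and 1.36 in ILC and 0, 0.0167, 0.195, 0.103 and 0.0899 in T cells. On day 7, 1 member held 60% of the 15 IL17A UMIs, and the level without it was 0.153. IL17F was 2.90 higher, in 4 of 5 libraries, since on day 7 the T cells held more (0.458 against 0.429). IL26 was 2.66 higher and CSF2, the granulocyte-macrophage growth factor, 2.74. The inflammatory cytokine TNF was 2.83 higher, the neutrophil chemokine CXCL8 3.13 and the epidermal growth factor receptor ligand HBEGF 2.61.

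Lymphotoxin, the signal of lymphoid tissue inducer cells, was high at every age. LTB stood at 36.5, 34.8, 31.3, 30.4 and 25.8 in ILC and 2.91, 7.16, 5.36, 4.32 and 5.86 in T cells, and was found in 96.8% of ILC and 50.2% of T cells. Its log2 fold change was 2.70 ± 0.19 (SE, n = 5; edgeR adjusted p = 1.8e-06), and the lowest ILC library lay above the highest T cell library. LTA was 2.05 higher and TNFSF11, which encodes RANKL, 1.81 higher in 4 of 5 libraries. TNFSF4, IL5 and TGFB1 did not pass the test, and IFNG and IL13 had 0 UMIs in the 1533 members, which, taking 3 counts as the limit of a count of 0, allows a share of up to 0.196% of members with a UMI.

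Among cytokine and homing receptors, 13 of 25 tested were higher and 8 lower. The cytokine receptors among the higher genes included IL1R1 by 4.10, the high-affinity interleukin 2 receptor chain IL2RA by 3.29, IL7R by 2.20, KIT by 2.08, IL18RAP by 1.94 and IL18R1 by 1.91 on the log2 scale. IL2RB (-0.02) did not pass, and IL12RB2 was 2.20 lower on the log2 scale. IL2RA held 7.41, 6.75, 7.32, 7.54 and 5.19 in ILC against 0.478, 0.871, 0.805, 0.847 and 0.599 in T cells. IL7R was 12.8, 8.48, 12.3, 13.6 and 6.59 in ILC and 3.6, 5.50, 2.31, 0.669 and 1.69 in T cells. Its classes also did not overlap.

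Homing receptors split. CCR6, which guides cells to the follicle-associated epithelium, was 3.22 higher, from 0.928, 0.586, 1.29, 1.08 and 0.442 against 0.0564, 0.0398, 0.137, 0.136 and 0.240. CXCR6 (1.60), GPR183 (1.19), PTGDR2 (1.92), IL12RB1 (1.05), IL2RG (0.82) and CXCR5 (1.85) completed the higher side; CXCR6 was higher in 4 of 5 libraries, and the IL12RB1 call was lost under 8 alternative settings. CXCR5, the receptor for the follicle chemokine CXCL13, was 0.217, 0.217, 0.603, 0.227 and 0 in ILC and 0.0312, 0.0282, 0.0789, 0.227 and 0.285 in T cells, and its call was lost without any 1 of days 0, 1 and 3.

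Homing receptors on the lower side included S1PR1 and CCR7. The egress receptor S1PR1 was 0.0878, 0.0725, 0.0416, 0.0504 and 0 against 0.660, 1.35, 0.879, 0.372 and 0.277, a log2 fold change of -3.83. CCR7, which guides cells to lymph nodes, was 3.12 lower on the log2 scale and the chemokine receptor CXCR3 3.02. The gut-homing and retention genes ITGB7, ITGAE and CCR9 were lower as well, by 2.67, 2.65 and 1.68.

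**Figure D3:**
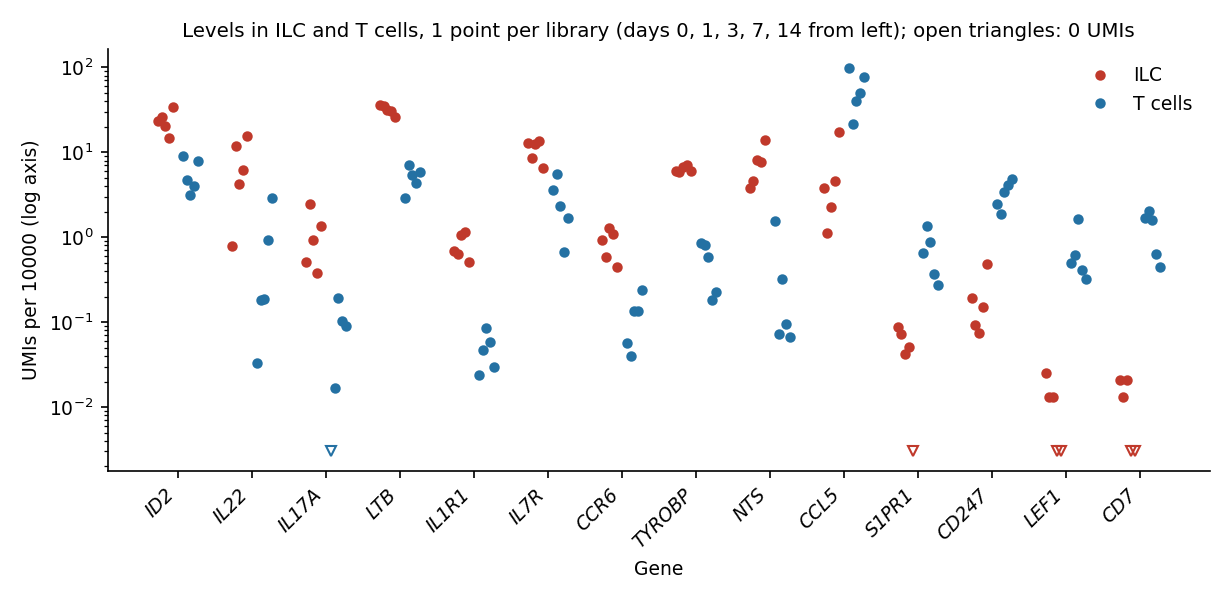
Levels of 14 genes in ILC (red) and T cells (blue) in UMIs per 10000 on a log axis, with 1 point per library in the order days 0, 1, 3, 7 and 14; open triangles are libraries at 0 UMIs, drawn at the foot of the axis. ID2, LTB, IL1R1, CCR6 and TYROBP lie higher in ILC, and CCL5, CD247 and CD7 higher in T cells.

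T cell receptor genes were low, as a gate that leaves out CD3 selects. Of 17 genes of the receptor complex and its signalling tested, 14 were lower and 0 higher, with a list median of -3.41. CD247, the zeta chain, stood at 0.192, 0.0922, 0.0754, 0.151 and 0.479 in ILC and 2.49, 1.86, 3.44, 4.17 and 4.85 in T cells. CD2, THEMIS and ICOS did not pass the test, with log2 fold changes of -0.21, 0.04 and 0.32; CD2 was 0.610, 0.603, 0.679, 0.933 and 0.921 in ILC and 0.762, 0.559, 0.889, 1.18 and 1.04 in T cells.

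The cytotoxic list had genes on both sides. Its 5 higher genes of 18 tested were the adaptors TYROBP (3.72) and FCER1G (1.63), the death ligand FASLG (2.01), the cystatin CST7 (1.60) and the cathepsin CTSW (1.46). TYROBP, whose product DAP12 carries the signal of NKp44, was 6.08, 5.80, 6.70, 7.08 and 6 in ILC and 0.844, 0.816, 0.584, 0.182 and 0.225 in T cells. PRF1, GNLY and CD244 did not pass. The 10 lower genes included the granzymes GZMH (-6.38), GZMA (-5.07) and GZMB (-3.21), the type 1 factor TBX21 (-3.51) and the chemokine CCL5 (-3.76). CCL5 stood at 3.82, 1.11, 2.27, 4.56 and 17.2 against 97.1, 21.6, 40.4, 49.5 and 77.7.

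Most MHC class II genes tested were lower in ILC than in T cells, and most growth and early response genes did not pass. Of 9 MHC class II genes tested, 6 were lower in ILC and 0 higher, with CD74 at 2.47, 4.35, 3.58, 2.70 and 7.11 against 9.25, 5.92, 6.16, 6.31 and 14.6; CIITA, SLA-DQA1 and SLA-DMA did not pass. The 10 listed genes summed to 6.76 to 13.3 in ILC, 11.2 to 27.0 in T cells, 69.9 to 120 in B cells and 28.8 to 99.8 in free RNA, and the part of free RNA was not tested. Only STMN1 (-1.43) passed among 10 cycling genes tested, a share near the 11.6% of all genes, and MKI67 was 0.117, 0.0955, 0.515, 0.202 and 0 in ILC. Of 13 early response genes, FOS (0.97), FOSB (1.01) and NFKBIA (1.15) were higher, against 13.1% of all genes.

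**Figure D4:**
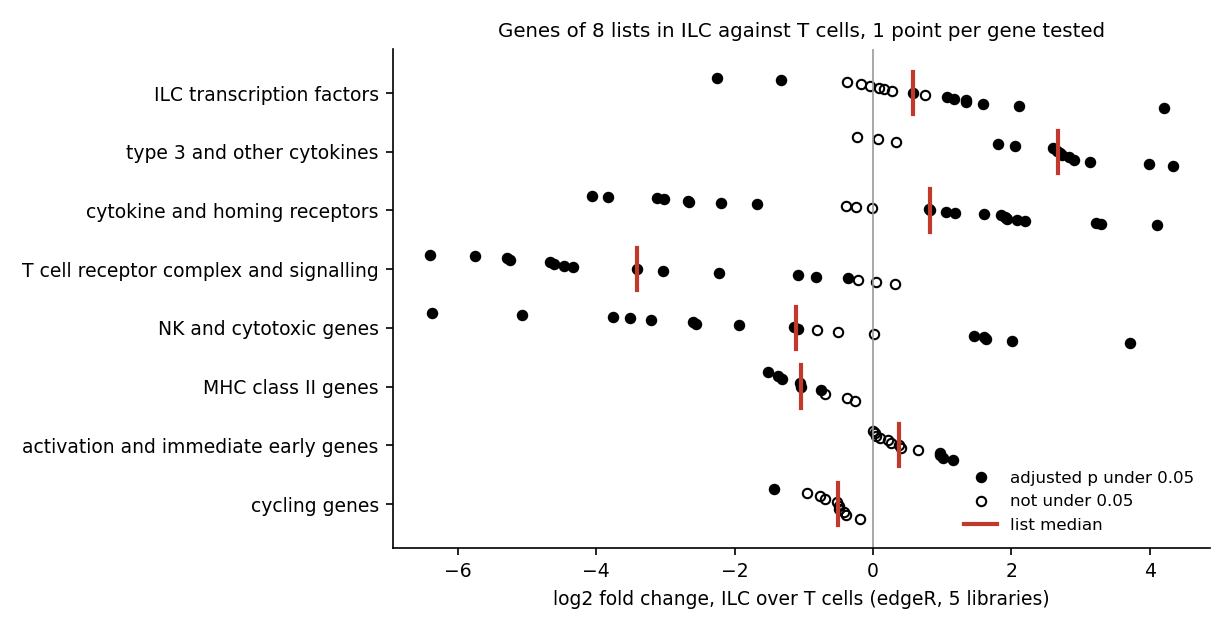
Log2 fold change of ILC over T cells (edgeR, 5 libraries) for the genes of 8 lists, with 1 point per gene tested; filled points passed an adjusted p of 0.05, open points did not, and red bars are list medians. The cytokine median lies at 2.68 and the T cell receptor median at -3.41.

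Of the neuropeptide list, the other tachykinin precursors and the tachykinin receptors were not detected. TAC1 and TAC4, the precursors, and the receptors TACR1, TACR2 and TACR3 had 0 UMIs in all members, with the same limit as given above for IFNG and IL13. NMUR1, the neuromedin U receptor, was 2.11 lower on the log2 scale, and CALCRL did not pass.

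The 15 genes with the largest differences on the higher side, taken from 817 called in the same direction in all 5 libraries and detected in at least 10% of ILC, opened with a channel gene and a signalling gene. SCN9A, a voltage-gated sodium channel, was 0.234, 0.494, 0.531, 0.479 and 0.295 in ILC and at most 0.0075 in any T cell library. Its log2 fold change was 6.67 ± 0.31 (SE, n = 5; edgeR adjusted p = 9.5e-08), and it was detected in 21.3% of ILC and 0.133% of T cells. RGS9, a regulator of G protein signalling, was 1.08, 0.883, 1.87, 1.11 and 0.368 against 0.0134, 0.0103, 0.0263, 0 and 0, a difference of 6.54 ± 0.28. The adducin ADD2 followed with 5.94 ± 0.57, and TGFB3, a transforming growth factor, with 5.89 ± 0.24 and detection in 29.0% against 0.532%.

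TNFSF13B, which encodes the B cell survival factor BAFF, was 3.31, 3.43, 3.64, 4.34 and 1.84 in ILC and 0.0743, 0.0808, 0.0684, 0.0330 and 0.150 in T cells. It was detected in 64.5% of ILC and 2.02% of T cells, with a log2 fold change of 5.44 ± 0.31 (SE, n = 5; edgeR adjusted p = 3.3e-07). SCIN, an actin-severing protein, was detected in 84.3% against 3.19% and was 5.24 ± 0.38 higher. The ion and proton transport genes SLC8A1 (5.63) and OTOP2 (5.62), the homeobox gene HOXA5 (5.58), RASSF9 (5.85), POPDC3 (5.48), LOC100525237 (5.46), MPPED2 (5.38), FBXL21 (5.37) and RHBDL2 (5.11) made up the rest. These calls held under every alternative that gave a value, as did those of the 10 lower genes named next.

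The 10 genes furthest down were C9H1orf186 (-6.64), CD7 (-6.59), GZMH (-6.38), LOC100627879 (-6.34), LOC102160313 (-6.09), DAPL1 (-5.99), LEF1 (-5.84), CD6 (-5.76), CD8A (-5.30) and EVL (-5.09). CD7, a surface protein of T and NK cells, was detected in 0.653% of ILC and 38.0% of T cells, at 1.67, 2.04, 1.57, 0.640 and 0.442 in T cells. LEF1, a Wnt pathway factor of T cells, was 0.0251, 0.0132, 0.0130, 0 and 0 in ILC against 0.492, 0.625, 1.66, 0.409 and 0.322. LOC102160313 on chromosome 7 (76554354 to 76565679) was 7.45, 2.08, 5.29, 5.86 and 13.6 in T cells and at most 0.167 in ILC.

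Further genes were picked after their values were seen. TMIGD2, a co-stimulatory receptor, was detected in 91.7% of ILC and 9.65% of T cells, with a log2 fold change of 4.05 ± 0.16 (SE, n = 5; edgeR adjusted p = 3.9e-08). CD109, a surface protein that binds transforming growth factor, was in 78.8% against 2.59% and 5.01 ± 0.21 higher. TIMP1, an inhibitor of matrix proteases, was 3.06 ± 0.21 higher, the interferon-induced chemokine CXCL10 3.38 ± 0.25, CCL1 2.99 and the factor BATF3 2.26. CD52 went from 2.90, 3.24 and 3.36 on days 0, 1 and 3 to 9.03 and 19.7 in ILC, against 19.0, 33.6, 23.4, 11.3 and 10.4 in T cells; its call (-1.74 ± 0.58, edgeR adjusted p = 0.048) was lost without any 1 of days 0, 1 and 3, with adjusted p between 0.151 and 0.178.

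NTS, the neurotensin precursor, was detected in 333 members (21.7%), of which 179 held at least 5 UMIs and 1 held 223. By library it was detected in 33.1%, 15.04%, 19.0%, 22.1% and 22.1% of ILC, 25.9%, 3.02%, 2.59%, 4.88% and 1.12% of T cells and 28.4%, 3.01%, 2.03%, 4.66% and 0.233% of B cells, and 127 of the 333 came from the day 0 library. The level was 3.84, 4.55, 8, 7.66 and 13.8 in ILC and 1.56, 0.0731, 0.326, 0.0950 and 0.0674 in T cells, and the log2 fold change was 5.03 ± 0.74 (SE, n = 5; edgeR adjusted p = 0.00039). Free RNA and the epithelial cells also carried NTS: barcodes of at most 100 UMIs held 23.2, 2.43, 0.63, 1.93 and 0.118, and epithelial cells 55.4, 12.3, 0.143, 61.4 and 0. Members with at least 5 NTS UMIs were 30 of 384, 41 of 399, 85 of 612, 9 of 68 and 14 of 68, against 0% to 0.862% of T cells and 0% to 0.218% of B cells. Among epithelial cells, 6.12%, 1.64%, 1.37%, 2.41% and 0% held at least 5. The part of free RNA in the ILC values was not tested.

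The 30, 41, 85, 9 and 14 NTS-high members, those with at least 5 NTS UMIs, were set beside the members with 0 NTS UMIs. IL22 was in 6.67%, 43.9%, 44.7%, 33.3% and 57.1% against 13.6%, 46.9%, 29.8%, 18.9% and 49.1%, so that the NTS-high share was lower on days 0 and 1 and higher on days 3, 7 and 14; these shares were not tested. At least 1 of 8 enteroendocrine genes (CHGA, CHGB, PYY, CCK, SCG2, SCG5, PCSK1N and GCG) was in 36.7%, 12.2%, 7.06%, 0% and 14.3% of the NTS-high members against 24.1%, 9.73%, 6.05%, 5.66% and 11.3%. In T cells that share was 33.2%, 20.5%, 10.9%, 24.2% and 16.8%. On day 14 SCG5 was the only one of the 8 found in NTS-high members, and it was in 15.4% of T cells and 29.7% of B cells. CHGA, the chromogranin of endocrine granules, was in 6.67% of the NTS-high members at birth and in 0 of them on days 1 to 14. The NTS call in ILC against T cells was lost with T cells taken without their B cell and epithelial limits (adjusted p = 0.075 by edgeR's test).

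Members with and without an NCR2 UMI were compared. NCR2 is a gate gene with a median of 1 UMI per member, so the split goes with depth, and its calls describe this split and not the presence of NKp44 on the cell. The 11 gate genes were left out of the test. NCR2 was detected in 204, 208, 377, 44 and 22 members and undetected in 180, 191, 235, 24 and 46, and the undetected ones had to pass the gate through the other 3 markers. The detected part was deeper in every library, with medians of 6725, 7614.5, 6574, 6317.5 and 4149.5 UMIs against 5176, 6685, 5211, 4726.5 and 3773. Of 7300 genes tested by edgeR in the same design, 21 were higher (0.288%) and 70 lower (0.959%) with NCR2, 1.25% in either direction. With both parts gated on at least 5 UMIs of TAC3, IL23R and KLRB1 alone, an alternative chosen after the data were seen, 22 were higher and 74 lower of 7296. That gate kept 202, 207, 365, 43 and 21 of the detected members and all of the undetected ones. The cells were thus almost the same, and these counts cannot show whether the calls depend on the gate.

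IL22 did not pass between the parts, with a log2 fold change of 0.21 (edgeR adjusted p = 0.813). LTA was 2.25, 1.43, 1.13, 2.22 and 1.91 with NCR2 and 0.881, 0.742, 0.756, 0.444 and 1.80 without, a log2 fold change of 0.95 ± 0.15 (SE, n = 5; edgeR adjusted p = 0.00083). LTB did not pass (0.24, edgeR adjusted p = 0.38) and was lower with NCR2 on day 14. OTOP2 was 1.05 ± 0.16 higher, TNFSF11 0.90, GPR18 0.82, IL26 0.80, CST3 0.76 and SLA-DQB1 0.69; the SLA-DQB1 value turned to -0.22 with cells thinned to 1000 UMIs. In CST3, 3 members held 88.8% of the day 1 UMIs.

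CXCL8 and FCGR3A were lower with NCR2 in this split. Members with KLRB1 as their only detected marker (10, 2, 3, 3 and 11) all fall in the part without NCR2 by construction. Their part in the calls was not tested. CXCL8 was 0.392, 0.776, 0.637, 1.16 and 3.83 with NCR2 and 3.16, 5.37, 1.88, 3.19 and 11.2 without, lower with NCR2 in 5 of 5 libraries (log2 fold change -2.22 ± 0.17, SE, edgeR adjusted p = 2e-08). FCGR3A, the Fc receptor CD16, was -2.23 ± 0.26, the amino acid transporter SLC1A5 -1.42, PHLDA2 -1.31 and the heat shock gene HSPA6 -1.20. CSF2 (-1.88), IL17F (-1.05), CCR9 (-2.04), GZMB (-2.25) and FCER1A (-2.22) were also lower. IL17F was lower in 3 of 5 libraries and CSF2 and CCR9 in 4 of 5, and the IL17F call held under 3 of 9 alternatives.

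These counts were small and moved with the fit. Without 1 library they fell to between 2 and 17 higher and 19 and 66 lower, the lowest without day 0, and without the library block they were 0 and 0, with 180 genes at an unadjusted p under 0.05 in that fit. With every cell thinned to 1000 UMIs, 3 and 20 of 2290 genes passed. Calls lost without some library included those of CD247, CST3, EGR1, GPR18, GZMB, IL17F, IL26, JUN, SLA-DQB1, TNFSF11 and ZFP36.

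Several cytokine genes stood higher on day 1 than at birth, and lymphotoxin genes did not. Levels in ILC were set side by side, with T cells and free RNA of the same libraries beside them and no test. A gene was counted if it had at least 50 UMIs in the library where its level was higher. Of 5118 such genes, 136 were at least 2-fold higher on day 1 (2.66%) and 73 at least 2-fold lower (1.43%), around a median log2 ratio of 0.04. IL22 went from 0.790 to 11.9, a ratio of 15.1 (13.1 to 17.6). Of 12 listed cytokines with enough UMIs, 5 were at least 2-fold higher and 0 at least 2-fold lower. LTB was at 0.954 of its level at birth (0.928 to 0.982), LTA at 0.662 (0.572 to 0.766) and HBEGF at 0.634 (0.530 to 0.757).

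IL22 was found in more members on day 1 than at birth, and unevenly among them. It was detected in 12.5%, 46.4%, 30.9%, 22.1% and 50% of ILC and in 2 of 2 on day 21, against 0.342% to 7.28% of T cells on days 0 to 14 and at most 1.13% of B or epithelial cells. Thinned to 1000 UMIs per cell, the ILC shares were 4.61%, 27.6%, 17.7%, 12.8% and 36.8%. Detected cells held a median of 2, 8, 5, 5 and 6 UMIs with a maximum of 316. Within each library the top 10% of members held 95.2%, 74.3%, 75.9%, 90.7% and 65.6% of the IL22 UMIs. With the members of all 6 libraries pooled they held 82.3%.

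Interleukin 17 followed in part. IL17A went from 0.514 to 2.44 (4.75; 3.92 to 5.80) and IL17F from 0.518 to 1.48 (2.85; 2.33 to 3.51), and 19.8%, 38.8%, 15.2%, 11.8% and 8.82% of members held either. Of 637 members with IL22 or interleukin 17, 174 held both; interleukin 17 was found in 36.8% of members with IL22 and 15.5% without. On day 14, where IL22 was at its highest level of days 0 to 14, IL17F was at 0.0737, from 2 UMIs, and IL17A at 1.36, of which 1 member held 51.4% (0.678 without it).

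TIMP1, CXCL10 and BATF3 moved with IL22 on day 1. TIMP1 went from 4.10 to 51.3 in ILC (12.5; 11.7 to 13.4), from 1.09 to 5.04 in T cells and from 0.705 to 6.45 in free RNA. CXCL10 went from 0.673 to 8.57 (12.7; 10.9 to 15), from 0.0416 to 1.74 in T cells and from 0.123 to 2.34 in free RNA. T cells and free RNA thus moved in the same direction, and the part of free RNA in the ILC values was not tested. On day 1 TIMP1 was detected in 95.7% of ILC and 30.2% of T cells (81.8% and 11.9% at 1000 UMIs).

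BATF3 went from 0.380 to 2.13 (5.61; 4.5 to 7.07), CCL1 from 0.146 to 0.876 (5.99; 4.2 to 8.78), CSF2 from 0.0334 to 0.343 (10.2; 5.01 to 24.4) and IL26 from 0.146 to 0.777 (5.31; 3.72 to 7.81). On day 3 all of these but IL26 were lower than on day 1: BATF3 stood at 0.830, CCL1 at 0.429, CSF2 at 0.200 and IL26 at 0.876. CSF2 rested on 8 UMIs in 6 members at birth and 104 UMIs in 24 members on day 1. The top 3 members held 62.5% of its UMIs in both libraries.

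The 8 highest ratios of day 1 belonged to genes held by few members. S100A9 (at least 104-fold, from 0 UMIs at birth, against a floor of 3 counts), SAA3 (99.6), LOC100516039 (89.1; 15.7 to 3549, from 1 UMI at birth), LYZ (82.8; 22.6 to 688, from 2 UMIs), TGM3 (60.7; 20.5 to 296, from 3 UMIs), S100A12 (at least 59.9-fold, on the same floor), RETN (41.1) and S100A8 (at least 36.3-fold, likewise) were each detected in 10 to 58 of 399 members, and the top 3 members held 55.4% to 93.8% of their UMIs. The same genes were 4.32-fold (LYZ) or more higher in T cells and 2.27- to 40.3-fold higher in free RNA.

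The lowest ratios were those of LOC100739080, GNLY, SST, LOC100625180, LOC100739611 and MMP1, of each of which 1 member held 82.8% to 100% of the UMIs at birth, and of FCN2 and REG4. FCN2 went from 0.802, spread over 149 members, to 0.0823 (0.103; 0.0648 to 0.156), and REG4 from 0.347 to 0.0362 (0.104; 0.0502 to 0.197). Both were lower in T cells and free RNA too.

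**Figure D5:**
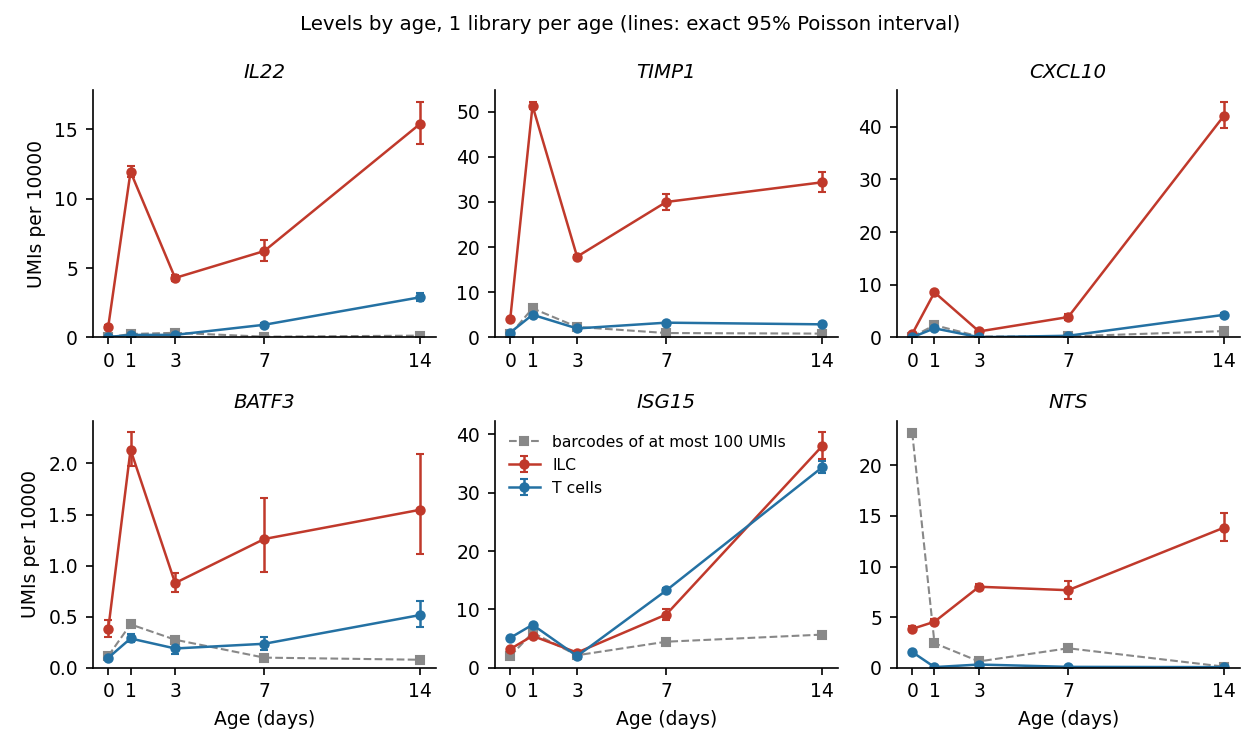
Levels of IL22, TIMP1, CXCL10, BATF3, ISG15 and NTS in UMIs per 10000 (linear axes) by age in days, with 1 library per age, in ILC (red), T cells (blue) and barcodes of at most 100 UMIs (grey, dashed); lines are exact 95% Poisson intervals. Day 21 (2 members) is not drawn. Over days 0 to 14, IL22, TIMP1, CXCL10 and BATF3 are highest on day 1 or day 14 in ILC, ISG15 reaches 38.0 in ILC and 34.3 in T cells on day 14, and NTS reaches 23.2 in free RNA at birth.

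Levels on day 14 were set against those at birth under the same UMI filter. Of 2176 genes, 119 were at least 2-fold higher than at birth (5.47%) and 315 lower (14.5%), around a median log2 ratio of -0.26. With scaling by TMM factors the split was 77 higher and 503 lower of 2965. ILC held 271548 UMIs on day 14 and 2392818 at birth, so a gene higher on day 14 needed a higher level to reach 50 UMIs. The split and the median thus cannot show whether more genes were lower than higher. IL22 was 19.5-fold (16.4 to 23.3) and CXCL8 5.71-fold (4.82 to 6.75) its level at birth, while IL7R was at 0.514 and TNF at 0.476 of it. Of the gate genes, given as a description, KLRB1 was at 1.67-fold and TAC3 at 0.341 (0.307 to 0.376) of the level at birth. The 24 members of day 14 without TAC3 had to pass the gate through the other 3 markers, and KLRB1 was detected in 100% of them. The day 14 values rest on 68 members.

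TNFRSF18, which encodes the co-stimulatory receptor GITR, had the highest ratio, 352 (135 to 1309, from 4 UMIs at birth). It was 0.0167, 0.231, 0.182, 0.756 and 5.89 in ILC and 0.423, 1.34, 0.605, 5.77 and 3.70 in T cells, and reached 57.4% of the members of day 14. Through day 7 it was thus below the T cells of the same library, and on day 14 above them.

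The other 7 genes at the top were CXCL10 (62.6), HSPA6 (47.9), LOC100152327, ISG20 (27.8), IL22, RSAD2 (15.4) and HSP70.2 (13.9). CXCL10, ISG20 and RSAD2 are known as interferon-induced, and their T cell ratios were 104, 58.7 and 46.9. HSPA6 and HSP70.2 are heat shock genes, with T cell ratios of 6.62 and 3.54. CXCL10 reached 42.1 in ILC and 4.31 in T cells, and HSPA6 went from 0.309 to 14.8 and from 1.18 to 7.78. ISG15 and DNAJB1, chosen after their values were seen, had ratios of 11.8 and 13.4, and ISG15 went from 3.21 to 38.0 in ILC and from 5.13 to 34.3 in T cells. LOC100152327 (37.8) went from 8.49 to 252 UMIs per 10000 in free RNA.

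The genes with the lowest ratios had 0 to 3 UMIs on day 14, so their order is within counting error. They were CXCL14 (0.0227; 0.000574 to 0.127), CFD (0.0390; 0.000983 to 0.219), SST (0 UMIs, at most 0.0553 on a floor of 3 counts), TFF3 (0.0608; 0.00732 to 0.222), DPP4 (0.0668; 0.00168 to 0.378), IGFBP7 (0.0799; 0.0164 to 0.235), PLAU (0.0816; 0.00205 to 0.464) and CST3 (0.0860; 0.0103 to 0.315). At birth 1 member held 95.6% of the SST UMIs, and the level without it (0.0880) lay under the day 14 floor of 0.110; 1 member held 62.4% of those of CST3. DPP4, the surface peptidase CD26, was in 23.2% of ILC at birth and in 1 of 68 on day 14. LOC100525237, among the 15 genes furthest above T cells, went from 2.31 to 0.221 (0.0956; 0.0349 to 0.209) between day 0 and day 14. TFF3, the goblet cell trefoil peptide, went from 1.93 to 0.172 in T cells as well.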

How the data were processed

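Single-cell RNA-seq was run by the authors on 1 library per age. The deposited matrices hold UMI counts per gene and barcode, made by the authors with Cell Ranger 3.1.0 (STAR) on susScr11, before any cell filter (6794880 barcodes listed per library); the labels name kit V3 and the methods V2. Cells were barcodes with at least 1000 UMIs and 500 genes; the gates are given in the text, and B and epithelial cells were barcodes with at least 2 UMIs of MS4A1 and PAX5 and at least 5 of EPCAM, KRT8 and VIL1. The members, gene lists and tests were chosen with earlier results of these data known.

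Counts were summed per library and class and tested with edgeR 4.0.16 (R 4.3.3; TMM factors, filterByExpr, glmQLFit, glmQLFTest, 2-sided), with the library as a block, in libraries with at least 20 cells in both classes; the 11 gate genes were left out and adjusted p under 0.05 was called. Classes were paired because both came from the same library. SE is the log2 fold change divided by the square root of F. DESeq2 1.42.0 and other filters, scalings, gates and left-out libraries were run as alternatives, and the fit was tested on simulated counts. Ages have 1 library each, so levels and shares carry exact 95% intervals (scipy 1.17.1) and no test; piglets within a library are not replicates. A gene at 0 was set to a floor of 3 counts over the library for a ratio. Depth differed between classes and limits low genes most.

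Named were the 15 higher and 10 lower genes with the largest log2 fold change among those called in the same direction in every library and detected in at least 10% of the higher class, 5 each way for the NCR2 parts, 8 each way for the ages, and the listed genes. TMIGD2, CD109, TIMP1, CXCL10, CCL1, BATF3, CD52, NTS, ISG15 and DNAJB1 were named after their values were seen. Positions are from RefSeq, Sscrofa11.1, matched by symbol. Some genes on the lists are not reported here.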

Additional observations from a re-analysis of the deposited data

Results flagged for a closer look

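Levels in both classes were read for 274 genes, and 33 of them were higher in ILC than in T cells in at least 1 library and lower in at least 1 other, with counting intervals that did not overlap in either direction. Of these genes, 4 passed the test between ILC and T cells, namely NFIL3, CXCR5, CD52 and TNFRSF18; the others did not pass or were not tested, among them HSPA6, at 0.309 in ILC against 1.18 UMIs per 10000 in T cells at birth and 14.8 against 7.78 on day 14. Other genes, such as IL17F, CXCR6 and TNFSF11, lay opposite in 1 library without that separation, and none of these differences between libraries was tested. NFIL3, a factor of ILC development, was higher in ILC than in T cells overall (log2 fold change 1.17), with counting intervals that did not overlap on days 1, 3 and 14, but lower on day 0 (0.848 against 1.15 UMIs per 10000). CXCR5 was higher overall (1.85) and on days 0, 1 and 3, but on day 14 stood at 0 in ILC and 0.285 in T cells. CD52 was lower overall (-1.74) and on days 0, 1, 3 and 7, and higher on day 14 (19.7 against 10.4). TNFRSF18 was lower overall (-1.90) and on days 0, 1, 3 and 7, and higher on day 14 (5.89 against 3.70). Between ages, 18 of the 274 genes moved in opposite directions in ILC and T cells from birth to day 1 and 15 from birth to day 14, with intervals that did not overlap in either class; these were not tested either. IL7R went from 12.8 to 8.48 in ILC and from 3.598 to 5.50 in T cells between birth and day 1, and ID2 from 23.1 to 26.1 and from 8.98 to 4.74. Among the genes furthest apart between ages, MMP1 went in ILC from 0.510 at birth to 0.0264 on day 1, while in T cells it went from 0.0416 to 0.0859; 1 member held 82.8% of its UMIs in ILC at birth.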

How the results depend on the processing

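ILC against T cells (1193 higher, 1053 lower) gave 771 and 628 calls without the replicate block, 486 and 443 of 4443 genes with cells thinned to 1000 UMIs, and 1653 lower without a filter on low counts; leaving out 1 library gave 871 to 1177 higher and 717 to 1002 lower. Of 2609 values of the 117 named and called genes under the alternatives, 107 of 26 genes missed the threshold and 0 reversed; SKAP1 (15 settings), CD52 (12), COL1A2 (10), DCN (8) and IL12RB1 (8) missed it most often. The NCR2 parts (21 higher, 70 lower) gave 4 and 26 with DESeq2, 35 and 144 without the filter, 0 and 0 without the replicate block and 3 and 20 thinned; without day 0 they were 2 and 19, and leaving out 1 library gave 2 to 17 and 19 to 66. SLA-DQB1 turned to -0.22 between the NCR2 parts when thinned (edgeR adjusted p = 0.908).

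The ILC share over ILC plus T cells was 18.0%, 19.8%, 63.7%, 13.7%, 16.0% and 1.11%; with at least 8 marker UMIs it was 4.95% of cells on day 3 and 0.320% on day 14, and with up to 1 UMI of the B cell genes, chosen after seeing the data, 5.94% on day 3. Genes at least 2-fold apart between days 1 and 0 numbered 299 higher and 241 lower from 20 UMIs on, and 41 and 20 thinned. Between days 14 and 0 the UMI filter admitted lower genes more readily, as given above. There the counts were 318 higher and 673 lower from 20 UMIs on, 77 higher and 503 lower with TMM scaling, and 28 and 60 thinned. The causes of these moves were not tested, beyond the fewer genes or samples that thinning, filters and left-out libraries leave by construction. Precision is limited by 2 members on day 21 and 68 each on days 7 and 14.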

Other observations

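Members without a TAC3 UMI numbered 69 (15, 7, 16, 6, 24 and 1 on days 0, 1, 3, 7, 14 and 21), and they differed between ages. At birth IL7R was detected in 33.3% of the 15 and in 96.2% of the members with TAC3, CCL5 in 80% and 15.2%, and NKG7 in 80% and 35.2%. On day 3 CCL5 was detected in 75% of the 16 and 17.4% of the others. On day 14 the 24 members without TAC3 held IL22 in 58.3% against 45.5% of the 44 with TAC3, and CCL5 in 37.5% against 43.2%. These shares were not tested.

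The tuft cell gene DCLK1 was detected in 3.91%, 4.01%, 8.50%, 1.47% and 0% of ILC on days 0, 1, 3, 7 and 14, against at most 0.37% of T cells and 0.30% of B cells; DCLK1 did not pass the filter on low counts and was not tested.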
